A study of Mus musculus with 6 samples.

Results

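The comparison described here sets 2 libraries of gut epithelium from antigen-free (AF) mice against 2 from germ-free (GF) mice, across all genes. The members were chosen by the group prefix in the sample titles, which gives 4 of the 6 libraries of the series. The other 2, from specific pathogen free (SPF) mice, entered the fit to help estimate the spread, and their levels are given for some genes only. Where they are not given, the text does not say which of AF and GF stood apart from SPF. Both AF and GF mice were C57BL/6 without a microbiota, and the cells were sorted epithelium of the small intestine. For GF mice the labels name no other change. AF mice had in addition no foreign antigen from food. No transgene, mutant allele or drug is named in the labels. Age, sex, the composition of the diets, the number of animals behind a library and the sorting markers were not among the information used here. The comparison therefore asks what differs when food antigens are also removed, in mice that already lack microbes. Any other difference between the diets cannot be told apart from the absence of food antigen.

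Enterocytes, the main cells of this epithelium, take up digested food at a brush border of peptidases, disaccharidases and transporters. Many of their genes are known to follow diet. A well-known example is vitamin A: retinoic acid made from dietary carotenoids induces the homeobox repressor Isx, which shuts down the carotenoid transporter Scarb1 and the cleavage enzyme Bco1. The same cells secrete antimicrobial lectins, and can display antigen on MHC class II molecules when interferon induces the transactivator Ciita.

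The libraries are named by the numbers in their titles, AF replicates 2 and 3 and GF replicates 1 and 3. Their totals ran from 16109488 to 19417054 expected counts. A single count equalled 0.0365 to 0.0785 CPM. CPM is the count relative to a library total scaled by TMM, a method that balances the bulk of the genes, and a log2 fold change is AF over GF with its standard error (SE). The 12 genes of epithelial identity, which include Epcam and Vil1, summed to 9517 to 10734 CPM in the 4 libraries, with none at 0, and their median log2 fold change was -0.01. GF replicate 3 stood apart by its lymphocyte RNA: 30 markers of intraepithelial lymphocytes and T cells summed to 476 CPM there, 52.5 CPM in GF replicate 1, and 31.2 and 21.7 CPM in AF replicates 2 and 3. It also held Xist, the X-inactivation RNA, at 14.8 CPM beside Y-linked RNA, whereas Xist was at 0.178 CPM or lower in the 3 others. The SPF libraries held Xist at 129.7 and 96.6 CPM and the Y-linked Ddx3y at 0, against 8.21 to 12.6 CPM of Ddx3y in AF and GF, so sex-linked RNA moves with SPF wherever its levels are set beside theirs. GF replicate 1 stood apart by its Paneth cell RNA, 8849 CPM over 20 markers against 1426 to 3086 CPM in the other 3 libraries. Mitochondrial genes took 17.9% of its counts, against 28.7 to 35.3% in the rest. The deposited tables of each group carry a date-like mark of their own, so a batch by date cannot be told apart from the group. Whether different animals gave the samples is not stated in the labels, and all p-values refer only to the spread among these libraries, which may be technical.

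With edgeR's quasi-likelihood test and Benjamini-Hochberg adjustment over 13644 genes, 1 gene rose in AF and 1 fell, each 0.00733% of those tested. The gene that rose was Pkd1l2, which encodes a polycystin-like membrane protein, and the one that fell was Isx. All other genes named below missed the edgeR threshold, also where only a DESeq2 adjusted p is given. DESeq2, run as an alternative, called 13 genes higher (0.0953%) and 38 lower (0.279%), both edgeR calls among them. It gave no adjusted p for 1323 of the 13644 genes, which count here as not called. At an unadjusted p below 0.05, edgeR gave 208 genes higher (1.52%) and 283 lower (2.07%). Both AF libraries lay above both GF libraries for 2158 genes (15.8%) and below them for 2429 (17.8%). These shares are the background for every gene list below. With library totals alone in place of TMM the median log2 fold change of all genes was -0.38 rather than -0.02, and list medians are read relative to it. Without any 1 of the 4 libraries edgeR called 0 genes in either direction, with 196 to 484 genes at an unadjusted p below 0.05 (196 without AF replicate 2, 208 without AF replicate 3, 469 without GF replicate 1 and 484 without GF replicate 3). In such a fit the lone library of a group is assumed to vary like the other groups.

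**Figure D1:**
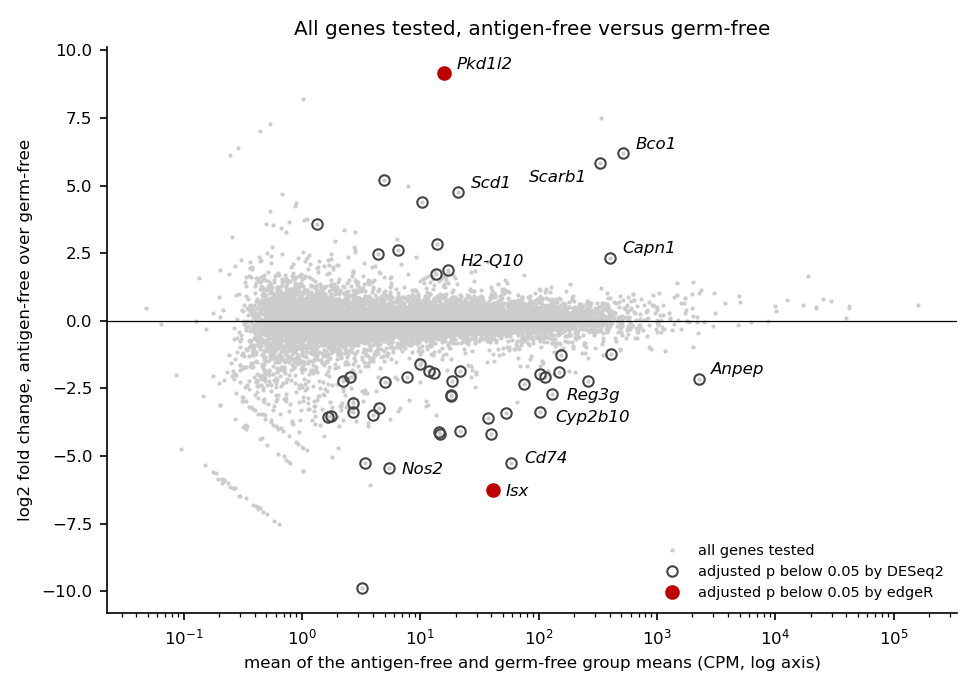
Log2 fold change of AF over GF (vertical axis) against the mean of the 2 group means in CPM (log axis) for the genes tested. Filled red points are the 2 genes called by edgeR, Pkd1l2 and Isx, and open circles the 51 genes called by DESeq2. Bco1, Scarb1 and Scd1 lie high among the genes above 10 CPM.

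Carotenoid genes were among those farthest apart. Isx, the homeobox repressor (chromosome 8, 74873173 to 74893506, GRCm38), was at 1.34 and 0.832 CPM in AF replicates 2 and 3, and at 81.1 and 82.0 CPM in GF replicates 1 and 3. The GF libraries lay within 1 CPM of each other and close to SPF, at 71.4 and 94.9 CPM, while both AF libraries were far below. Isx fell by 6.25 on the log2 scale (SE 0.34, edgeR adjusted p = 0.0186), the GF mean being 75.3 times the AF mean. Leaving out GF replicate 1 or 3 gave -6.25 and -6.24, so neither library decided its size.

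The carotenoid genes that Isx is known to repress stood the other way round. Bco1, which cleaves beta-carotene to retinal (chromosome 8, 117095854 to 117133720, plus strand), measured 1149 and 899.9 CPM in AF, against 6.45 and 21.6 CPM in GF. Its log2 fold change was 6.20 (SE 0.82), which missed the edgeR threshold (adjusted p = 0.563) and passed that of DESeq2 (adjusted p = 7.68e-19). Scarb1, the scavenger receptor that takes up carotenoids and cholesterol (chromosome 5, 125277087 to 125341094), measured 730.5 and 558 CPM in AF, against 6.6 and 16.2 CPM in GF. Its log2 fold change was 5.83 (SE 0.79), with an edgeR adjusted p = 0.563 and a DESeq2 adjusted p = 2.12e-16. For both genes the AF libraries were far above, and the GF libraries differed from each other by a wider ratio than the AF libraries did. Without GF replicate 1 the log2 fold changes of Bco1 and Scarb1 were 5.57 and 5.31, and without GF replicate 3 they were 7.31 and 6.61.

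Pkd1l2 lies next to Bco1 on chromosome 8 (116995679 to 117082449, minus strand). The genes point away from each other and are 13404 bases apart. Pkd1l2 measured 35.2 and 28.3 CPM in AF, and 0.0365 and 0.0678 CPM in GF, which is 1 count in each GF library. It rose with a log2 fold change of 9.18 (SE 0.60, edgeR adjusted p = 0.0299). As a ratio of scaled counts the difference was 659, with an exact 95% counting interval of 182 to 5450 that covers counting error only, on 2 counts in GF against 924 in AF.

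The 250 bases before the RefSeq start are shown for Bco1, its neighbour Pkd1l2 and Isx (GRCm38.p6, gene strand, 5′ to 3′). Isx lies far from both on the same chromosome. These 3 genes are shown because their levels stood far apart between the groups, together or in opposition. Capitals mark matches to listed motifs. Bco1 (chr8:117095615-117095864, plus strand) has the complement of the direct repeat bound by PPAR and related receptors, which is AGGTCA, 1 free base and AGGTCA again. Pkd1l2 (chr8:117082450-117082699, minus strand) has ATTGG, the Y box, and Isx (chr8:74872924-74873173, plus strand) has no match to the motifs listed.
Bco1: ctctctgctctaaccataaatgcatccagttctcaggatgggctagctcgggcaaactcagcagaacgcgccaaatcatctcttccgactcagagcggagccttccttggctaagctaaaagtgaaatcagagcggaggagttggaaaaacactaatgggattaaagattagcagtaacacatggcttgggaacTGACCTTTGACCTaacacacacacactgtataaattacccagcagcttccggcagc
Pkd1l2: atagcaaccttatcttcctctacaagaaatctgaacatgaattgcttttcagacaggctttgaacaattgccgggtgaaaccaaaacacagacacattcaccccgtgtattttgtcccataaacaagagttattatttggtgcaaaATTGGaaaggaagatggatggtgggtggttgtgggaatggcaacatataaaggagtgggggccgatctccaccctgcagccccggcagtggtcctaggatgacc
Isx: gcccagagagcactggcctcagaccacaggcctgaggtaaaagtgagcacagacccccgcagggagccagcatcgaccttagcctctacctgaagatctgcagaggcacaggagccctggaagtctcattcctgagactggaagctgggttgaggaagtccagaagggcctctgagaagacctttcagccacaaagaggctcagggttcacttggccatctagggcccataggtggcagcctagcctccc
Searched on both strands in windows of the same length, the PPAR direct repeat was in 11 of 32851 promoters (0.0335%) and the Y box in 33.8%. The other motifs searched were GAAA repeated after 2 free bases (the interferon-stimulated response element, ISRE), TTCNNNGAA (GAS), CACGTG (E box), GCGTG (the core bound by the aryl hydrocarbon receptor) and TAATTA (a homeodomain core, added after the values were seen). A match is a string of letters and not a bound site.

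Of the retinoid genes downstream of these steps, some lay close together in AF and GF and others lower in AF. Rbp2, the retinol-binding protein of enterocytes, was at 937 and 763 CPM in AF and 972 and 1307 CPM in GF. Lrat, which esterifies retinol, was at 15 and 16 CPM against 16.5 and 16.8 CPM, and Dhrs3, a retinal reductase, at 31.1 and 31.8 CPM against 33.2 and 36.4 CPM. The retinal dehydrogenase Aldh1a1 was lower in both AF libraries, at 47.6 and 40.6 CPM against 242 and 126 CPM (log2 fold change -2.06, SE 0.55, DESeq2 adjusted p = 0.0437). Its paralogue Aldh1a7 was at 9.03 and 7.49 CPM against 27.6 and 16.6 CPM. Of 31 listed genes of retinoid and carotenoid handling, 23 were tested. Isx alone passed edgeR's test, 4 lay higher and 10 lower in both AF libraries, and the median log2 fold change was -0.15 beside -0.02 over all genes. The other 8 listed genes were below the low-count filter. Rbp2, Lrat and Dhrs3 were among the 10 lower, with log2 fold changes of only -0.42, -0.10 and -0.15.

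**Figure D2:**
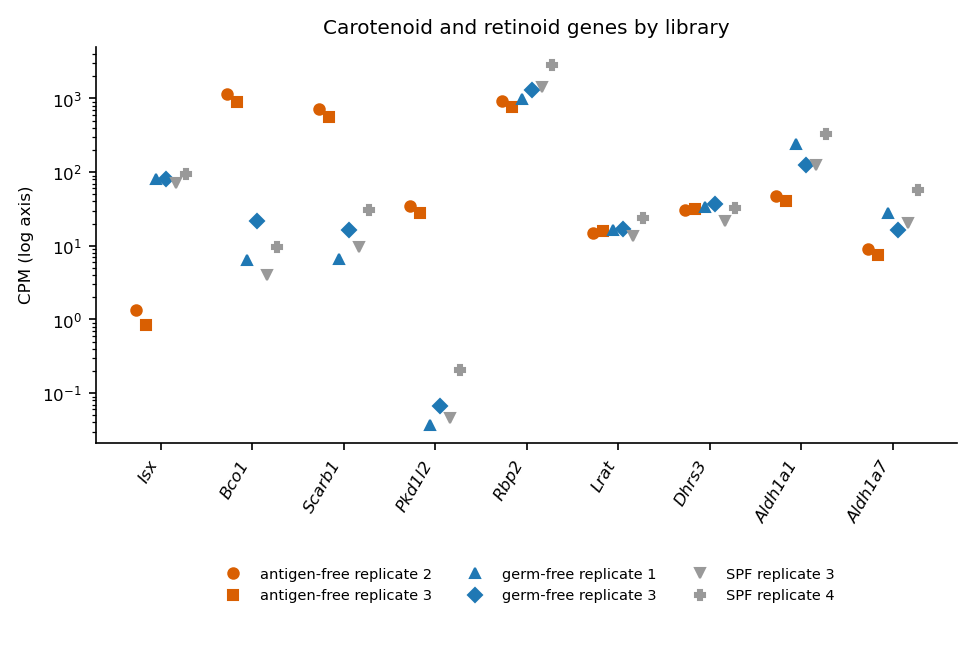
CPM (log axis) of 9 genes, which are carotenoid and retinoid genes and Pkd1l2, the neighbour of Bco1, with 1 point for each of the 6 libraries. Isx is near 1 CPM in AF and near 82 CPM in GF, Bco1, Scarb1 and Pkd1l2 are high only in AF among these libraries, and Rbp2, Lrat and Dhrs3 sit close together in AF and GF.

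Lipid genes showed no common direction, though single genes were far apart. Scd1, the desaturase that makes oleate, stood at 41.5 and 39.7 CPM in AF and at 2.33 and 0.475 CPM in GF (log2 fold change 4.77, SE 0.66, edgeR adjusted p = 0.563, DESeq2 adjusted p = 2.32e-10). The AF libraries were nearly equal, and the GF libraries were both low but differed from each other. Leaving out GF replicate 1 gave 6.40, and leaving out GF replicate 3 gave 4.12. The lipogenic regulator Srebf1 was at 170.0 and 151 CPM against 77.6 and 110.3 CPM. Of 14 lipogenesis genes tested, 3 lay higher in both AF libraries and none lower, with a median of 0.34, which was 0.04 without GF replicate 3 and 0.07 without AF replicate 3. Cd36, a fatty acid transporter, was lower, at 11.1 and 7.72 CPM against 32.4 and 36.1 CPM (log2 fold change -1.87, SE 0.31, DESeq2 adjusted p = 0.00277). Abca1, the cholesterol exporter, was at 18.7 and 12.5 CPM against 6.63 and 5.22 CPM. In the 27 genes of fat absorption and chylomicrons, 8 lay higher and 6 lower in both AF libraries. Their median was -0.10, and 0.41 without GF replicate 3 or 0.13 without AF replicate 3.

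Genes of fatty acid oxidation and PPAR targets lay in both directions. Angptl4, a secreted lipoprotein lipase inhibitor, was lower, at 49.7 and 32.9 CPM in AF against 120.3 and 206 CPM in GF (log2 fold change -1.98, SE 0.42, DESeq2 adjusted p = 0.00833). The list's median was 0.02 over 26 genes, with 6 higher and 2 lower in both AF libraries. In cholesterol synthesis 5 of 24 genes lay lower in both AF libraries and none higher. Hmgcs1, an early synthase, overlapped at 55.0 and 95.8 CPM against 154 and 77.5 CPM. The list's median was -0.33, with -0.10 without AF replicate 2 and 0.11 without GF replicate 1, so its direction rested on that library.

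Of the nutrient lists, protein digestion and amino acid transport had the largest share of its genes on 1 side. All 26 members passed the low-count filter, 25 had a lower fitted level in AF, and 21 lay lower in both AF libraries with 0 higher. None passed edgeR's test over all genes, 10 were lower at an unadjusted p below 0.05, and DESeq2 called 3. The median log2 fold change was -0.73, and -0.77 and -0.71 without GF replicates 1 and 3, so the level did not turn on either. Summed over the list, the libraries held 6702 and 5025 CPM in AF and 11992 and 12800 CPM in GF.

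The 3 members that DESeq2 called are peptidases. Anpep, aminopeptidase N of the brush border, was at 925 and 748 CPM in AF and at 3671 and 3677 CPM in GF (log2 fold change -2.14, SE 0.44, DESeq2 adjusted p = 2.32e-10). Enpep, the glutamyl aminopeptidase, was at 260.4 and 229.9 CPM against 639.5 and 498 CPM (log2 fold change -1.21, SE 0.30, DESeq2 adjusted p = 0.00724). Mep1a, a subunit of the secreted and membrane protease meprin, was at 103 and 76.8 CPM against 244 and 192 CPM (DESeq2 adjusted p = 0.0207). In each of the 3 the groups were apart. Xpnpep2, which cleaves before proline, was at 116 and 81.8 CPM against 206 and 207 CPM, and Dpp4, which cleaves after it, at 191 and 154 CPM against 302 and 316 CPM. Slc15a1, the di- and tripeptide transporter PEPT1, was lower in both AF libraries as well, at 161 and 106 CPM against 225 and 283 CPM (log2 fold change -0.93, SE 0.38). The basic amino acid exchanger Slc7a9 overlapped, with a log2 fold change of 0.02 that changed sign without AF replicate 2 (-0.29) or GF replicate 1 (-0.22).

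Genes of amino acid stress showed no common direction. Asns, asparagine synthetase and a standard target of ATF4, was at 9.97 and 12.7 CPM in AF and at 11.3 CPM in both GF libraries (log2 fold change 0.01, SE 0.76). Ddit3, the stress factor CHOP, was at 79.6 and 65.0 CPM against 34.5 and 57.4 CPM. Of 22 tested genes of this list, 6 lay higher and 4 lower in both AF libraries, with a median of 0.03.

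Carbohydrate genes stood mostly the other way. Of 18 genes of carbohydrate digestion and fructose handling, 13 lay higher in both AF libraries and 1 lower, and the median was 0.64 (0.52 and 0.73 without GF replicates 1 and 3). None passed edgeR's test, and 3 were higher and 1 lower at an unadjusted p below 0.05. Sis, sucrase-isomaltase, was at 1906 and 2028 CPM in AF and 1058 and 957 CPM in GF. The fructose enzymes Khk, ketohexokinase, and Tkfc, triokinase, were 2.02 and 2.30 times as high by their means, Khk at 498 and 518 CPM against 233 and 271 CPM, and Tkfc at 439.6 and 492 CPM against 202 CPM in both GF libraries. Fbp1, fructose-bisphosphatase, was at 40.7 and 42.9 CPM against 12 and 11.8 CPM (log2 fold change 1.81, SE 0.48). The glucose transporter Slc5a1 (SGLT1) was at 1432 and 1276 CPM against 836 and 971 CPM, while the fructose transporter Slc2a5 overlapped, at 70.8 and 49.2 CPM against 64.7 and 59.2 CPM. Lactase, Lct, overlapped too. The exception was Pck1, the cytosolic PEPCK of gluconeogenesis, which was at 113 and 70.8 CPM in AF and 379.8 and 474 CPM in GF (log2 fold change -2.22, SE 0.49, DESeq2 adjusted p = 0.00377). SPF libraries, which also differed in sex-linked RNA, lay nearer AF for Pck1 (72.0 and 167 CPM) and Sis (1568 and 2364 CPM). For Khk they were spread, at 306 and 574 CPM.

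**Figure D3:**
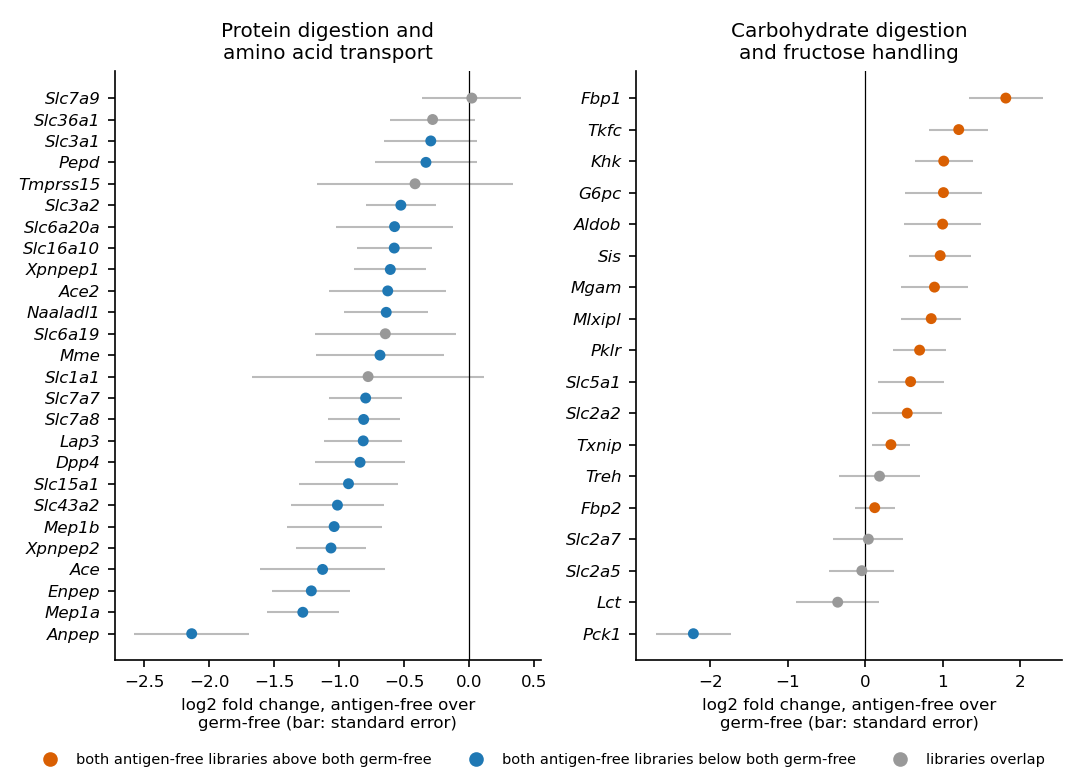
Log2 fold change of AF over GF with its standard error for the 26 genes of protein digestion and amino acid transport (left) and the 18 of carbohydrate digestion and fructose handling (right). Colours show whether the 2 AF libraries lay above, below or among the 2 GF libraries. On the left 21 genes are wholly lower in AF, with Anpep lowest at -2.14, and on the right 13 are wholly higher and Pck1, at -2.22, is wholly lower.

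Several epithelial defence genes known to answer to microbes had lower levels in AF than in GF, although neither group had a microbiota. Nos2, inducible nitric oxide synthase, was at 0.314 and 0.178 CPM in AF and at 12.5 and 8.75 CPM in GF (log2 fold change -5.44, SE 0.50, edgeR adjusted p = 0.152, DESeq2 adjusted p = 2.16e-11). Reg3g, a lectin that kills Gram-positive bacteria, was at 30.9 and 38.4 CPM against 216 and 237 CPM (log2 fold change -2.71, SE 0.47, DESeq2 adjusted p = 5.66e-07). SPF libraries, which also differed in sex-linked RNA, held 1576 and 686 CPM of Reg3g, so the order of the 3 groups was AF, GF, SPF. Reg3b, a member of the same family, was at 128 and 169 CPM against 342 and 418 CPM. Duox2, a hydrogen peroxide generating oxidase, was at 8.01 and 4.99 CPM against 18.7 and 42.0 CPM (log2 fold change -2.22, and -1.53 without GF replicate 3, DESeq2 adjusted p = 0.00788). Cyba, the p22phox subunit of NADPH oxidases, was at 4.32 and 5.41 CPM against 15.2 and 14.7 CPM (log2 fold change -1.62, SE 0.28, DESeq2 adjusted p = 0.0054), and Pigr, which carries IgA across the epithelium, at 1243 and 1497 CPM against 2665 and 2679 CPM. The inflammasome cytokine Il18 was higher, at 39.9 and 44.1 CPM against 25.0 and 20.6 CPM. Over the 25 defence genes tested, 9 lay lower and 4 higher in both AF libraries, 4 were lower and 1 higher at an unadjusted p below 0.05, and the median was -0.35.

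Drug-handling genes were lower in AF in most cases. Of 46 tested genes of xenobiotic metabolism, 29 lay lower and 7 higher in both AF libraries, 12 were lower and 3 higher at an unadjusted p below 0.05, and the median was -0.42. DESeq2 called 4 lower and 1 higher. Cyp2b10, the classic target of the receptor CAR, was at 20.6 and 16.2 CPM in AF and 169.6 and 207 CPM in GF (log2 fold change -3.36, SE 0.54, edgeR adjusted p = 0.788, DESeq2 adjusted p = 1.21e-07). Ces1f, a carboxylesterase, was at 9.42 and 8.91 CPM against 119.6 and 76.5 CPM (log2 fold change -3.42, SE 0.54, DESeq2 adjusted p = 1.81e-07). Cyp2c55 was at 5.26 and 4.22 CPM against 29.1 and 33.9 CPM, Cyp3a11, a target of PXR, at 58.0 and 43.1 CPM against 176 and 218 CPM, and the glutathione transferase Gstm1 at 8.87 and 9.03 CPM against 54.3 and 43.2 CPM. The cytochrome Cyp3a44 was the gene DESeq2 called higher, at 2.75 and 2.20 CPM against 0.146 and 0.271 CPM. Cyp2u1, a fatty acid hydroxylase outside this list, was also higher, at 19.9 and 21.9 CPM against 6.31 CPM in both GF libraries (DESeq2 adjusted p = 0.000119).

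The aryl hydrocarbon receptor senses plant and microbial indoles. Its list holds known targets and also the receptor gene Ahr and its partner Arnt. Of 9 genes tested, 6 lay lower in both AF libraries, 4 of them at an unadjusted p below 0.05, and 1, Ahr, lay higher. Cyp1a1, the receptor's most responsive target, was at 2.83 and 6.36 CPM in AF and 34.6 and 29.7 CPM in GF (log2 fold change -2.80, SE 0.77, DESeq2 adjusted p = 0.0341), with -2.34 and -3.53 without AF replicates 2 and 3. The quinone reductase Nqo1 was at 5.26 and 4.46 CPM against 18.9 and 11.1 CPM. Ahr was at 7.15 and 7.31 CPM against 6.96 and 5.36 CPM. Bile acid handling was less displaced, with 2 of 9 genes lower in both AF libraries. Abcc3, a basolateral exporter, was at 44.1 and 36.8 CPM against 68.6 and 99.2 CPM, and Fgf15, the hormone that bile acids induce, overlapped at 12.2 and 21.9 CPM against 19.7 and 11.3 CPM.

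MHC class II genes, the subject of the series' title, were lowest in the AF libraries, and the GF libraries differed widely from each other. Cd74, the invariant chain, was at 3.14 and 2.91 CPM in AF, and in GF at 10.2 CPM (replicate 1) and 220.2 CPM (replicate 3). The beta chain H2-Ab1 was at 6.60 and 4.87 CPM, then 13.1 and 124 CPM in the same order, and H2-Aa, an alpha chain, at 2.12 and 1.07 CPM, then 2.26 and 52.0 CPM. Ciita, which switches the class II genes on, was at 0.471 and 0.654 CPM, then 1.97 and 7.67 CPM. In each the lowest values were those of AF, and GF replicate 1 lay nearer to AF than to GF replicate 3. H2-Eb1, H2-DMa and H2-DMb1 showed the same order of libraries.

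Of the 18 class II genes listed, 14 were tested. None passed edgeR's test, 7 were lower at an unadjusted p below 0.05, DESeq2 called the same number lower, and 8 lay lower in both AF libraries with 1 higher. The list's median was -1.74, with values of -2.11 when GF replicate 1 was left out and -0.53 when GF replicate 3 was. For Cd74 the fold change of -5.25 (SE 1.37, DESeq2 adjusted p = 0.0437) became -1.75 without GF replicate 3, for H2-Ab1 the value of -3.58 became -1.19, for H2-Aa -4.10 became -0.52 and for Ciita -3.05 became -1.78. The direction was thus kept, while the size depended strongly on GF replicate 3, most of all for H2-Aa among these 4 genes. The proteases and factors of the list that serve other pathways too, such as Ifi30 (0.00) and Ctsl (0.31), did not share the difference.

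The same library carried the most lymphocyte RNA. Gzma, granzyme A of cytotoxic lymphocytes, was at 4.71 and 3.51 CPM in AF, and in GF at 12.9 CPM (replicate 1) and 137 CPM (replicate 3). Cd3e, of the T cell receptor complex, was at 0.628 and 0.297 CPM, then 0.838 and 7.73 CPM. Of 24 lymphocyte genes tested out of 30 listed, 17 lay lower in both AF libraries and 16 were lower at an unadjusted p below 0.05. Their median was -3.09, and -0.85 without GF replicate 3. Markers of macrophages and dendritic cells, which carry class II, summed to 8.72 and 8.08 CPM in AF and to 13.2 and 27.6 CPM in GF, with 2 to 6 of 18 at 0 in a library. Markers of B cells and plasma cells summed to 5.97 CPM or less, with 8 to 13 of 16 at 0. Their part in the class II levels was not tested. In bulk RNA fewer cells of a type and less RNA per cell cannot be told apart.

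**Figure D4:**
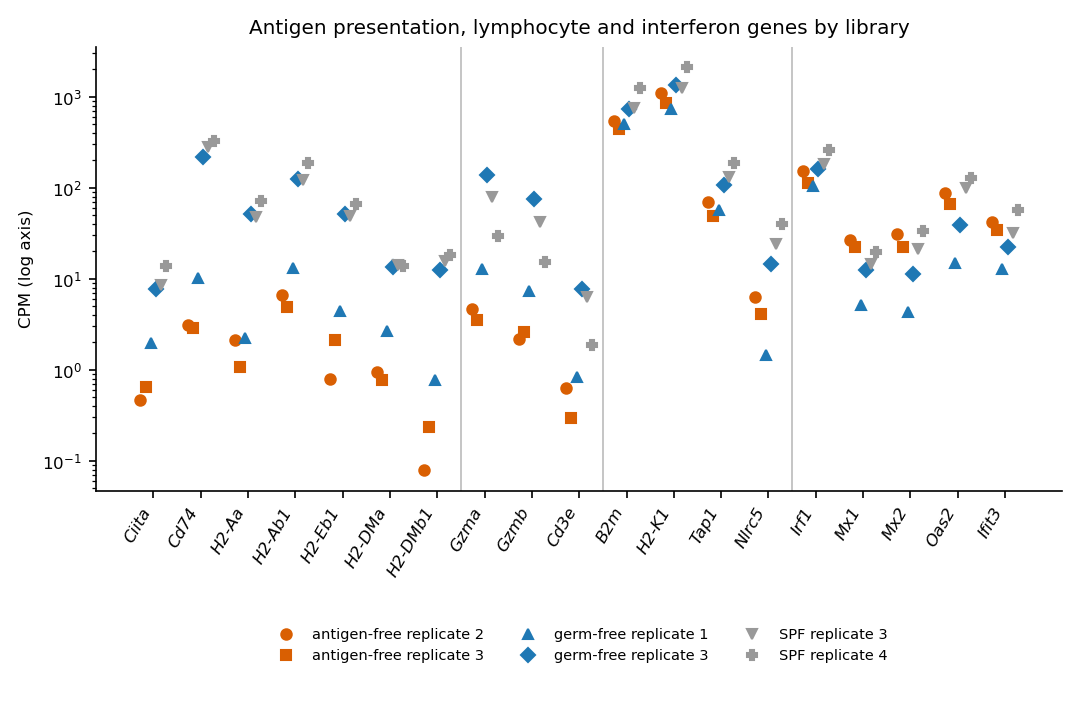
CPM (log axis) of class II genes, lymphocyte genes, class I genes and interferon-response genes, in that order from left to right and separated by grey lines, with 1 point for each of the 6 libraries. GF replicate 3 lies with SPF for the class II genes, at 220.2 CPM of Cd74, and GF replicate 1 lies near AF, at 10.2 CPM.

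MHC class I genes overlapped between the groups. B2m, the light chain, was at 536 and 439 CPM in AF and 507 and 738 CPM in GF, and H2-K1, a classical heavy chain, at 1112 and 864 CPM against 729 and 1333 CPM. Tap1, a peptide transporter subunit, was at 70.6 and 49.0 CPM against 56.4 and 108 CPM, and Nlrc5, the class I transactivator, at 6.36 and 4.10 CPM against 1.46 and 14.5 CPM. For all 4 the AF libraries lay wholly or partly between the GF libraries. Of 29 genes tested, 1 lay higher and 6 lower in both AF libraries, and the median was -0.33, with 0.08 without GF replicate 3. The proteasome activator Psme1 was at 85.7 and 83.7 CPM against 114 and 147 CPM. The gene that lay higher was H2-Q10, a secreted class I heavy chain best known from liver, at 24.7 and 29.2 CPM against 6.78 and 7.87 CPM (log2 fold change 1.88, SE 0.24, edgeR adjusted p = 0.563, DESeq2 adjusted p = 9.56e-06). The Q genes resemble each other, and RSEM's posterior standard deviation for H2-Q10 was at most 2.31% of its count.

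Interferon-response genes showed no common direction as a list. Of 50 tested, 17 lay higher and 3 lower in both AF libraries, 4 were higher at an unadjusted p below 0.05, 0 passed edgeR or DESeq2, and the median was 0.08. Leaving out GF replicate 1 gave -0.26, and leaving out GF replicate 3 gave 0.68. By fitted level 29 of the 50 genes were higher and 21 lower, from -6.20 to 1.80. For 1 gene both AF libraries were at 0. Antiviral genes of the type I and III interferon response were among those higher. Mx2, annotated as a polymorphic pseudogene, was at 31.0 and 22.4 CPM against 4.27 and 11.3 CPM (log2 fold change 1.80, SE 0.50). Mx1, of the same dynamin-like GTPase family, was at 26.9 and 22.3 CPM against 5.10 and 12.3 CPM. Whether the RNA of either gene gives a working protein in these mice was not tested. Oas2, which makes the RNase L activator, was at 87.6 and 66.5 CPM against 14.8 and 38.9 CPM, and Ifit3 at 41.7 and 34.3 CPM against 12.8 and 22.3 CPM. In these 4 genes AF lay above both GF libraries, and GF replicate 3 lay between GF replicate 1 and AF. Irf1, a transcription factor of the interferon gamma response, overlapped, at 154 and 112 CPM against 105 and 159.6 CPM.

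The Ifit3 promoter is shown as an example of the ISRE in a gene higher in AF (chr19:34583279-34583528, plus strand, GRCm38.p6, RefSeq), with both matches to the ISRE in capitals, as their complement.
Ifit3: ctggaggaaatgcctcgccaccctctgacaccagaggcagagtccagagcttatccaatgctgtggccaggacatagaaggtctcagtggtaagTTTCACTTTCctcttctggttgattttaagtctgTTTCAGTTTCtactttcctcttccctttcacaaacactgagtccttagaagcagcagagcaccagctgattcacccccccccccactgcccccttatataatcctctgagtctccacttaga
This motif was in 20 of the 36 interferon-response promoters in the table and in 2.98% of all 32851 promoters. It was in 1 of 10 promoters of the class II presentation list, that of the protease gene Ctss. The Y box, found in 33.8% of all promoters, was in 7 of those 10. These were H2-Aa, H2-DMa, H2-DMb1 and H2-Eb1, and also Lgmn, Rfx5 and Rfxank.

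Of 17 tested genes for signals from epithelium to lymphocytes, none was called by edgeR or DESeq2. In edgeR 1, Il7, was lower at an unadjusted p below 0.05, and DESeq2 gave it no adjusted p. On the fitted level 12 were lower and 5 higher. Among the 17, 8 lay lower and 2 higher in both AF libraries, with a median of -0.33. Il7, a cytokine that sustains lymphocytes, was at 0.236 and 0.178 CPM against 1.09 and 0.814 CPM, the AF values being 3 counts each. The butyrophilin-like Btnl1 and Btnl6, which maintain gamma delta lymphocytes, were at 139 and 120 CPM against 173 and 181 CPM, and at 89.1 and 71.3 CPM against 123 and 131 CPM.

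Among the cell type lists, tuft cell genes had the largest share with the groups apart, though none passed edgeR or DESeq2. These chemosensory cells express Trpm5, a cation channel, at 88.4 and 95.5 CPM in AF and 42.1 and 62.4 CPM in GF, and the actin regulator Avil, at 44.6 and 37.2 CPM against 19.6 and 25.4 CPM. Of 19 tuft genes tested, 16 lay higher in both AF libraries and none lower, the median was 0.66, and 0 were at an unadjusted p below 0.05. Without GF replicates 1 and 3 the median was 0.47 and 0.97. The goblet cell median was -0.13 over 17 genes, the enteroendocrine median -0.06 over 24 and the brush border median 0.20 over 22. None of these 3 lists had a gene called by edgeR or DESeq2. Of the goblet genes 16 had a lower fitted level in AF and 1 a higher, with 6 lower and 0 higher in both AF libraries. For enteroendocrine genes 3 lay higher and 0 lower in both AF libraries, and for brush border genes 6 higher and 2 lower. Leaving out GF replicate 1 gave -0.43 for enteroendocrine and -0.11 for brush border genes, leaving out GF replicate 3 gave 0.55 and 0.60, and leaving out AF replicate 2 gave 0.14 and 0.04, so neither list had a direction that held across the libraries. Tm4sf20, of the brush border list, was at 148 and 157 CPM against 82.5 and 62.8 CPM. Paneth cell genes had a median of -1.14, which was 0.50 without GF replicate 1. The defensin Defa5 was at 10.6 and 14.1 CPM in AF, and at 66.6 and 9.30 CPM in GF, so the higher value belonged to GF replicate 1 alone. The medians of crypt stem cell genes (-0.32) and proliferation genes (-0.09) also turned without that library, to 0.36 and 0.69, and the latter also without AF replicate 2, to 0.31.

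Clock genes were partly displaced. Of 17 tested, 8 lay higher and 2 lower in both AF libraries, with a median of 0.28. Nr1d1, the repressor REV-ERB alpha, was at 140.1 and 117 CPM against 76.9 and 68.6 CPM, Hlf at 3.38 and 3.21 CPM against 0.802 and 0.746 CPM, and Bhlhe40 at 72.5 and 70.9 CPM against 42.5 and 43.6 CPM. The repressor Cry2 stood the other way, at 9.90 and 9.21 CPM against 13.2 and 20.6 CPM. The hour of sampling is not stated.

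**Figure D5:**
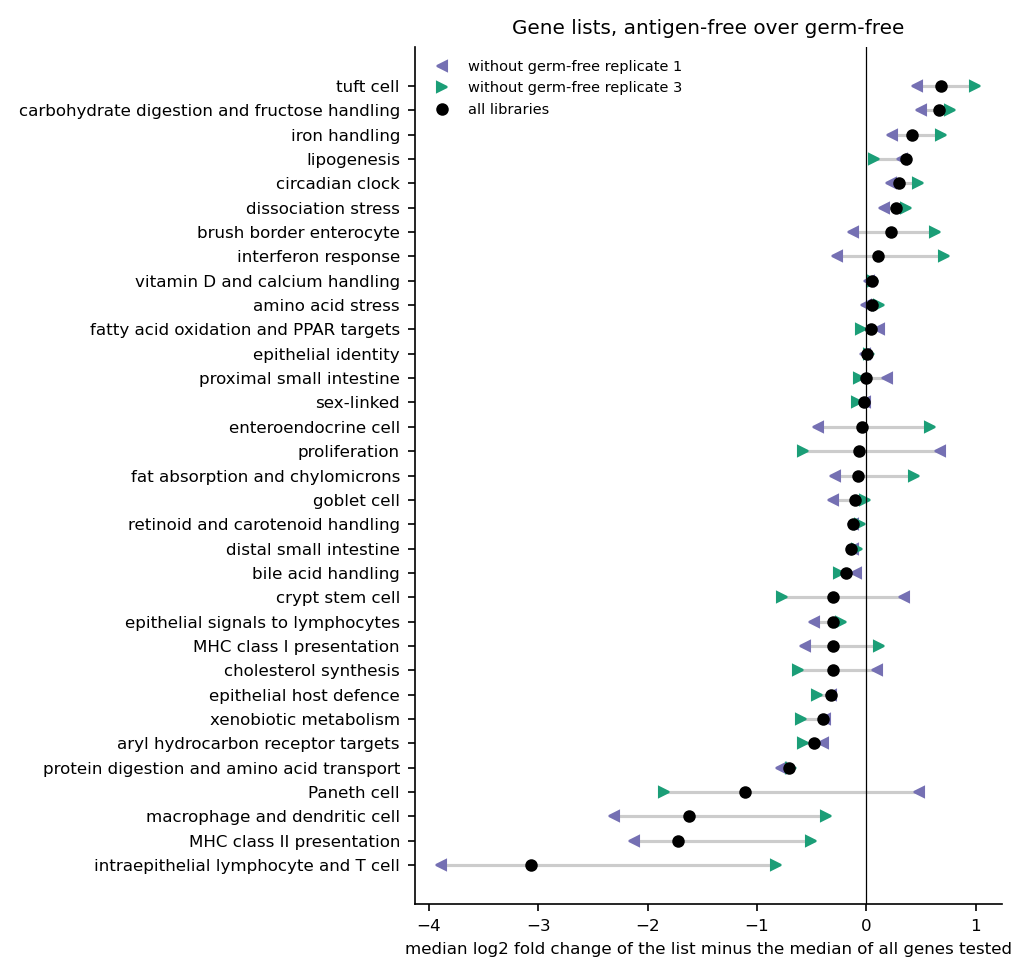
Median log2 fold change (AF over GF) of each gene list with 5 or more tested genes, minus the median of all genes, with all libraries (black) and without GF replicate 1 or 3 (coloured triangles). Protein digestion, carbohydrate and tuft cell lists keep their side of 0, whereas Paneth cell, stem cell, proliferation, cholesterol and brush border lists are among those that cross it without GF replicate 1.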

How the data were processed

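RNA-seq of sorted small intestinal epithelium was deposited as 1 RSEM gene table per library. These tables, per the file headers, hold expected counts, in which RSEM shares out reads that fit several genes, and TPM, scaled by length to a fixed total. RSEM's posterior standard deviation of the count, in the same tables, was used to find genes with shared reads. The genome is GRCm38/mm10, and the tools listed in the submitters' processing notes are STAR 2.5.2b, edgeR 3.16.5 and RSEM. The strand setting is not given in the sources. Expected counts were rounded (23.5% of positive values were not whole). Symbols and 1-based coordinates came from GENCODE M21 (51633 of 51912 genes matched), and promoters from RefSeq (GRCm38.p6). The main test was edgeR 4.0.16's quasi-likelihood F test (R 4.3.3, TMM, filterByExpr, all 6 libraries, contrast AF minus GF), with 0.05 as the threshold on p after Benjamini-Hochberg adjustment. It was tested on simulated data. The 18 alternatives included DESeq2 1.42.0 and limma 3.58.1 on log2(TPM + 1). Over genes with 20 counts or more the chi-square per gene was 44.6 (AF pair) and 239 (GF pair), so no library was counted as a duplicate. The text names up to 6 genes per direction by smallest p (at least 5 CPM in the higher group, groups apart), at most 2 members per list and a fixed set. Further members were chosen after their values were seen, Khk and Oas2 among them. Some genes that the rule names are not reported here. Members and the 36 lists were chosen with earlier results of these data known. Without a strand setting, reads of overlapping antisense genes cannot be told apart.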

Additional observations from a re-analysis of the deposited data

How the results depend on the processing

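Genes called higher and lower in AF, 1 and 1, were 13 and 38 with DESeq2, 17 and 36 with edgeR's likelihood ratio test, 3 and 1 with library totals alone, 91 and 173 with no low-count filter (22763 genes), 5 and 4 with limma on log2(TPM + 1), and 1 and 7 with only AF and GF fitted. Leaving out 1 library gave 0 to 2 higher and 0 to 7 lower. The 6 settings not named here gave the same counts. Library totals moved the median of all genes to -0.38, and relative to it 2 of the 36 list medians changed sign. Of the 96 genes whose values are given, 83 kept their direction in every setting. With library totals and limma the values turned for Fgf15 (-0.26 and -0.28), Ahr (-0.17 and -0.18), Pola2 (-0.27 and -0.34) and Slc7a9 (-0.30 and -0.42), and with limma for Ctsl (-0.34). Irf1 reversed with these (-0.30 and -0.45) and no filter (-0.0075), and Asns with these 3 (-0.33, -0.079 and -0.012) and without the 20 most abundant genes (-0.0056). Ifi30, at 0.00, reversed in the same 4 settings (-0.36, -0.43, -0.015 and -0.0084) and with only AF and GF fitted (-0.0012). With a library left out, the ranges of the 12 genes that then reversed were -0.85 to 0.084 (Tap1), -2.43 to 0.41 (Defa5), -1.47 to 1.83 (Nlrc5), -0.37 to 0.60 (Fgf15), -0.43 to 0.44 (H2-K1), -0.33 to 0.17 (Slc2a5), -0.26 to 0.34 (Irf1), -0.038 to 0.75 (Ctsl), -0.076 to 0.22 (Pola2), -0.29 to 0.32 (Slc7a9), -0.068 to 0.082 (Ifi30) and -0.20 to 0.17 (Asns). No paired analysis was possible because AF and GF share only 1 replicate number. With 2 libraries a group, a p above the threshold does not show that levels were equal.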

Other observations

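Genes outside the lists were also far apart. Capn1, the protease calpain 1 (chromosome 19, 5988545 to 6015897, minus strand), was at 776 and 553 CPM in AF and 123 and 141 CPM in GF. Its log2 fold change was 2.34 (SE 0.33, edgeR adjusted p = 0.563, DESeq2 adjusted p = 6.01e-09). SPF libraries stood with GF, at 115 and 154 CPM. Gm10814, an antisense gene that overlaps its start, was at 11.5 and 7.90 CPM in AF and 0.401 and 0.0678 CPM in GF. Their reads cannot be told apart without a strand setting. The neighbouring Pola2, a DNA polymerase subunit, was at 26.6 and 22.3 CPM against 21.0 and 25.8 CPM.

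Aqp8, a water channel, had 0 counts in both AF libraries and was at 7.66 and 5.29 CPM in GF (288 counts), at least 67.3-fold higher in GF, taking 3 counts as the floor for the AF group (DESeq2 adjusted p = 4.35e-05). Slc13a2, the citrate and succinate transporter, was at 68.6 and 59.5 CPM in AF and 207 and 266 CPM in GF (DESeq2 adjusted p = 0.00121), and its antisense gene Slc13a2os at 1.88 and 1.60 CPM against 7.76 and 9.02 CPM. These genes were chosen after their values were seen.

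In iron handling, the ferritin heavy chain Fth1 was at 3231 and 3265 CPM in AF and 1380.3 and 1543 CPM in GF, and Epas1, the HIF-2 alpha factor, at 36.4 and 33.0 CPM against 19.6 and 18.9 CPM. Of 12 genes tested, 4 lay higher and 2 lower in both AF libraries. Of 17 genes of dissociation stress, such as Fos and Jun, 9 lay higher in both AF libraries and none lower, with a median of 0.25. The 2 groups thus differed slightly in this list as well, and its part in other results was not tested.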
